A study of Mus musculus with 4 samples.

Results

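The genes described here are 40 members of the Wnt pathway at the cell surface and outside the cell: 16 Wnt ligands, 10 Frizzled receptors, 4 co-receptors, 9 secreted antagonists and the target gene Axin2. They were chosen by name from 22911 gene symbols that could be read from the array's RefSeq annotation, and all 40 had a probe. Earlier results of these data were known when they were chosen, so their shares beside all genes are descriptive only. Expression was measured once in each of 4 conditions, on 4 single-color Agilent arrays of 1 slide. The cells came from subcutaneous tumors in 8-week-old C57BL/6Ncr mice, either wild type (Wt) or Sipa1 knockout (Sipa1-/-), taken on day 12 after injection of 15000 GFP+ hematopoietic progenitor cells (HPCs) carrying Bcr-Abl in Matrigel. Sipa1 encodes a GTPase-activating protein for the small GTPase Rap1. In each genotype, mesenchymal stroma cells (MSCs) were sorted as GFP- CD45- Ter119- CD31- cells and CD8+ T cells as GFP- TCRb+ CD8+ cells, so both populations of both genotypes had been exposed to the same kind of tumor. The deletion was in the whole host and the tumor cells were Wt, which means that a difference between genotypes was not limited to the sorted cell. The series lists 5 mice per genotype, but whether the RNA of an array came from 1 mouse or a pool was not stated.

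Wnt proteins are secreted lipid-modified ligands. They bind Frizzled receptors together with a co-receptor: Lrp5 and Lrp6 lead to stabilization of β-catenin, whereas Ror1 and Ror2 act mainly in branches that do not need β-catenin. Sfrp proteins, Frzb and Wif1 bind Wnt ligands outside the cell, and Dkk1 and Dkk2 block the Lrp co-receptors. Fibroblasts and other stromal cells are known both to make Wnt ligands and to secrete several of these antagonists, and Axin2 is a widely used readout of β-catenin signaling.

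A level is given here as the log2 spot signal minus the log2 signal at the 75th percentile of the same array, so that 0 is the level of that percentile. A gene counted as measured in a comparison when a probe passed the scanner software's quality flags, including being well above background, on both arrays. Between 60.3 and 65.3% of spots were well above background and 0 were saturated. With 1 array in each condition no difference had a replicate check, and no test across mice was possible. Probes that were spotted repeatedly gave a typical log2 SD of 0.0401 to 0.044 within an array, which covers the spotting and scanning error only, or 0.0622 for a ratio of 2 arrays.

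The library labels were compared with the targeted gene and with marker genes. The first Sipa1 probe read 5.03 and 3.78 on the Wt and Sipa1-/- MSC arrays and 5.40 and 3.73 on the CD8 T-cell arrays. The second read 3.05 and 1.46 in MSCs, and 3.43 and 1.39 in CD8 T cells. Both probes were lower on the arrays labelled Sipa1-/-, though still above background, and whether they lie in the deleted part was not examined. All 12 fibroblast markers (among them Col1a1, Dcn and Pdgfra) were well above background on every array, with a summed level, in units of each array's 75th percentile, of 992 and 1610 on the Wt and Sipa1-/- MSC arrays and 207 and 302 on the CD8 T-cell arrays. Thy1, which T cells also express, made up most of the latter: without it the sums were 949 and 1520 in MSCs and 41.3 and 126 in CD8 T cells. The CD8 T-cell arrays measured all 10 T-cell markers, at summed levels of 583 and 584. Markers of B-lineage cells, which normally carry CD45, were also present on the MSC arrays, with 12 of 12 above background and a summed level of 689 in Wt against 11 of 12 (all but Rag1) and 42.4 in Sipa1-/-. Granulocyte markers, 8 of 8 above background on every array, summed to 725 and 815 on the MSC arrays and to 626 and 332 on the CD8 T-cell arrays. Erythroid markers summed to 383 and 399 on the MSC arrays and to 11.2 and 5.15 on the CD8 T-cell arrays. Skeletal muscle markers summed to 54.7 and 86.6 on the MSC arrays and to 1.21 and 1.07 on the CD8 T-cell arrays.

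**Figure D1:**
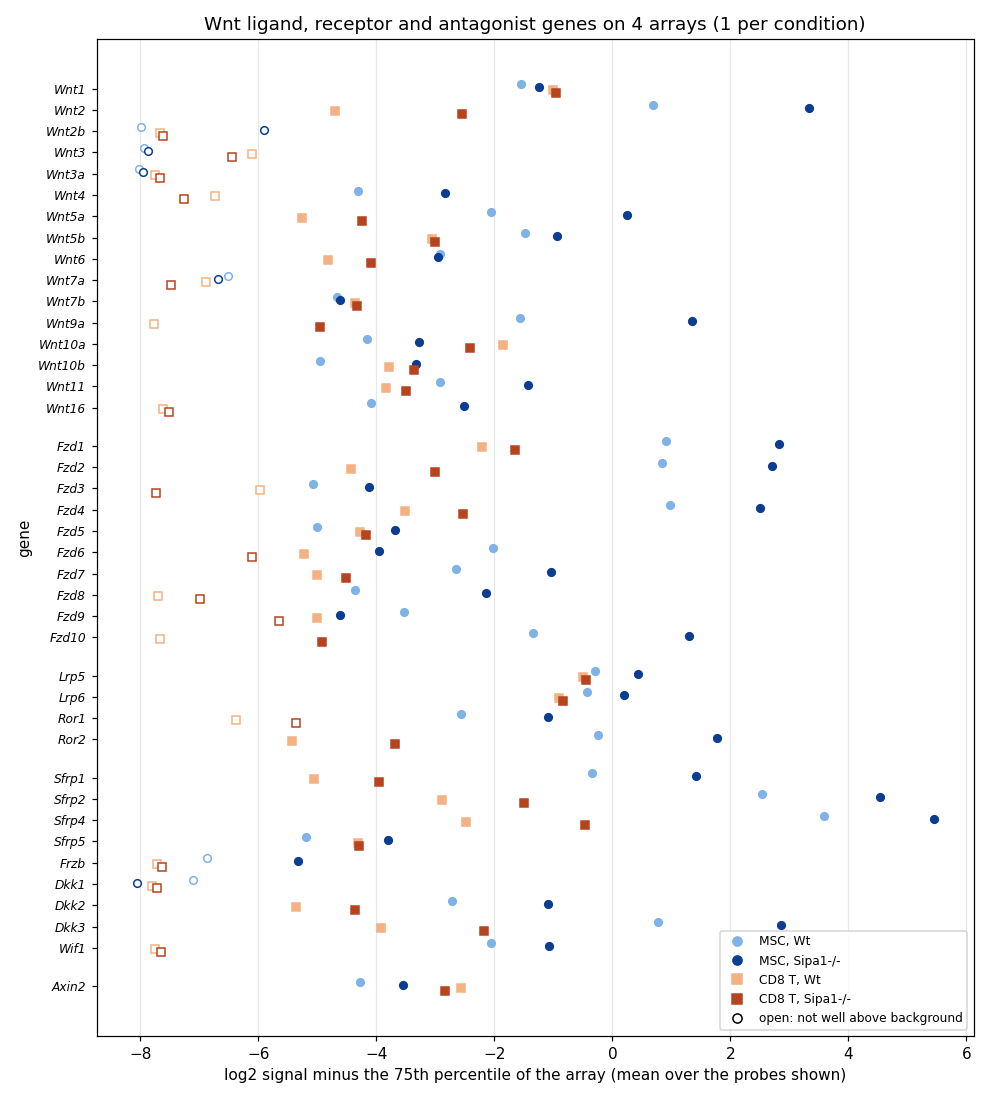
Levels of the 40 Wnt genes on the 4 arrays; the x axis is the log2 signal minus the 75th percentile of the array, circles are MSCs, squares are CD8 T cells, and open symbols were not well above background. For genes with 2 probes, the probe or probes above background on the most arrays are shown; Sfrp4 and Sfrp2 read 3.58 and 2.53 on the Wt MSC array and 5.44 and 4.54 on the Sipa1-/- one.

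Which of these genes differed between Sipa1-/- and Wt MSCs was the first comparison. Most read higher on the Sipa1-/- array. Of the 32 members measured, 29 were higher and 3 lower, with a median log2 ratio of 1.48 against 0.04 for all 15298 genes measured. At least 2-fold higher were 20 members, or 62.5%, beside 19.3% of all genes, and 2 members, Fzd6 and Fzd9, were at least 2-fold lower (6.25%, beside 11.3% of all genes). Of all genes past 2-fold, 63.1% were higher, against 54.1% with median scaling and 74.1% with the values of the deposited series table. In RNA of a sorted population, a larger share of cells of one type and more RNA per cell cannot be told apart. The fibroblast markers moved the same way between these arrays: 11 of 11 measured were higher, 7 of them at least 2-fold, with a median log2 ratio of 1.56 and a range of 0.26 to 2.54. Other lists were also mostly higher: macrophage markers in 6 of 6 (median 0.92), keratinocyte in 5 of 5 (0.75) and skeletal muscle in 6 of 7 (0.40). The 11 measured B-lineage markers were all at least 2-fold lower, with a median of -4.16, as were 5 of 6 pan-leukocyte markers (median -1.85). The part of any of these cell types in the Wnt gene differences was not tested. Within the range of the fibroblast markers lay 26 of the 32 members (81.2%) and 40.0% of all genes measured. Above that range were Wnt9a and Fzd10, and below it were Wnt6, Wnt7b, Fzd6 and Fzd9.

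**Figure D2:**
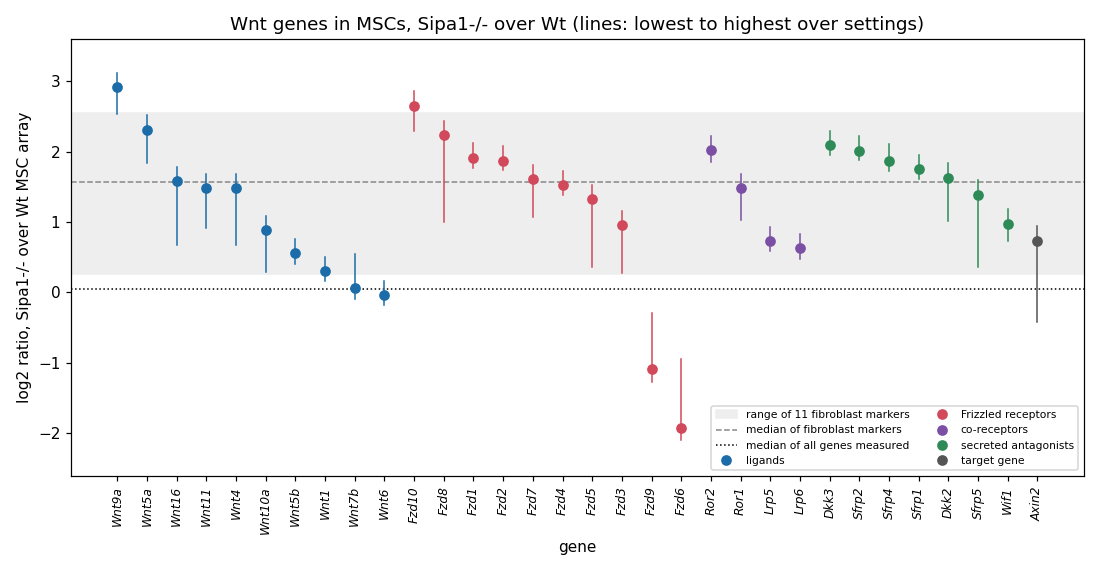
Log2 ratio of the Sipa1-/- over the Wt MSC array for the 32 members measured, by role; points are the values in the text, vertical lines run from the lowest to the highest value over all processing settings, and the gray band and dashed line are the range and median of the fibroblast markers. Ratios run from 2.91 for Wnt9a to -1.92 for Fzd6, and 15 of the 32 points lie within 0.5 of the dashed line at 1.56.

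The stretches just upstream of the transcription start are shown for 4 genes that moved by different amounts: Wnt9a and Fzd10, with the highest ratios, Sfrp2, an antagonist that was also higher in Sipa1-/- MSCs, and Fzd9, 1 of the pair that was lower. RefSeq promoter entries (GRCm38.p6) were found for 28 of the 40 members. Each line gives the 250 bases before the start, read in the direction of the gene, with GGGCGG on either strand (a GC box core, which Sp1-family factors can bind) in capitals. Wnt9a lies on the plus strand at chr11:59306680-59306929, Fzd10 on the plus strand at chr5:128600856-128601105, Sfrp2 on the plus strand at chr3:83766071-83766320 and Fzd9 on the minus strand at chr5:135251048-135251297.
Wnt9a: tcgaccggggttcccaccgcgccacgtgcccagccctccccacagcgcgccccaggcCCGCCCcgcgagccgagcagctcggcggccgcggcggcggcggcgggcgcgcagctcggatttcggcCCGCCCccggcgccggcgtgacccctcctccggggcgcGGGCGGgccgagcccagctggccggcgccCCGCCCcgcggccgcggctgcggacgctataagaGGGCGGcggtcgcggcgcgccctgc
Fzd10: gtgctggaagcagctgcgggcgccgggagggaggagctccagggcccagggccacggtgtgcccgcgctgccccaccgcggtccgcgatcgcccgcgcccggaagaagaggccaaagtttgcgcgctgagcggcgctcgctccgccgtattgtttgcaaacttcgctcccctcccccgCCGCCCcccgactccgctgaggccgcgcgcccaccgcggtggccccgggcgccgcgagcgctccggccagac
Sfrp2: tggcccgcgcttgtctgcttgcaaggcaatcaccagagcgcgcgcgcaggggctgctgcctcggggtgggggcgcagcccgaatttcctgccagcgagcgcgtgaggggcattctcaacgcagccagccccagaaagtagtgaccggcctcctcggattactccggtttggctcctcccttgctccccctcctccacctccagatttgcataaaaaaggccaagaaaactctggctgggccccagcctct
Fzd9: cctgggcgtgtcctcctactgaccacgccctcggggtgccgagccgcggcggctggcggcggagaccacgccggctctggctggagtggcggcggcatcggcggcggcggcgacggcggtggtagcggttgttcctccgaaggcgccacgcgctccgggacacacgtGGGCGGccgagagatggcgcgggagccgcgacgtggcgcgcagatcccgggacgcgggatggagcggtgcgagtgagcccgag
The Wnt9a stretch held 5 GC box cores and 48 CpG dinucleotides, the Fzd10 stretch 1 core and 37 CpGs, the Sfrp2 stretch 0 cores and 16 CpGs, and the Fzd9 stretch 1 core and 42 CpGs. Across all members with an entry, 24 of 31 windows held GGGCGG (23 of 28 members), beside 32.7% of 32851 windows of the same length. TATAAA was in 5 of the 31 member windows, beside 12.4% of all windows. The TCF/LEF core with its flanks was searched in 2 forms only, each on both strands. CTTTGAA was in 1 of 31 member windows (Dkk1), beside 4.46% of all windows. CTTTGAT was in 2 of 31 (Wnt11 and Wnt5b), beside 3.21%. Counts this small do not set the members apart from all windows. The median was 22 CpGs for the 31 member windows and 6 for all windows. These matches describe the sequence and do not show binding.

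Among the ligands, 10 of 16 were measured in MSCs, with a median log2 ratio of 1.18. At least 2-fold higher were 5 (50%, beside 19.3% of all genes), and 0 were at least 2-fold lower (beside 11.3%). Wnt9a, which can signal through β-catenin, read -1.56 in Wt and 1.35 in Sipa1-/- MSCs, a 7.53-fold difference. Wnt5a, the best known ligand of the β-catenin-independent branch, read -2.06 and 0.25 (4.96-fold). These were the highest ratios among the 10 ligands measured. Wnt5a was measured by 1 of its 2 probes, since the other was below background on the Wt array.

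Wnt16, a ligand known from bone and skin, read -4.10 in Wt and -2.52 in Sipa1-/- MSCs (2.99-fold). Wnt11, another ligand that often acts without β-catenin, read -2.92 and -1.44 and its 2 probes gave log2 ratios of 1.48 and 1.49. Wnt4, required in kidney and gonad development, read -4.32 and -2.84 (2.79-fold). These 3 genes were dim on both arrays, and their ratios depended on the background correction: with model-based correction and an added offset of 50 signal units, none of them reached 2-fold. Wnt10a read -4.16 and -3.28, Wnt5b -1.49 and -0.93, and Wnt1 -1.54 and -1.24, which were 1.85-, 1.47- and 1.23-fold differences. Wnt6 was nearly level, at -2.93 and -2.97, and so was the mean of Wnt7b, at -4.67 and -4.61, although its 2 probes went opposite ways (0.55 and -0.43).

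Wnt2, a ligand made by fibroblasts of several organs, was left out of these counts because its spot on the Wt MSC array had a non-uniform background. Its level was 0.69 there and 3.32 on the Sipa1-/- array, a log2 ratio of 2.64 that exceeds that of Wnt5a. Wnt10b was left out for the same kind of fault. Wnt2b, Wnt3, Wnt3a and Wnt7a were not well above background on either MSC array.

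All 10 Frizzled receptors were measured in MSCs, with a median log2 ratio of 1.57. Past the 2-fold threshold lay 7 on the higher side (70%, beside 19.3% of all genes) and 2 on the lower side (20%, beside 11.3%). Fzd10 read -1.35 in Wt and 1.30 in Sipa1-/- (6.27-fold), and Fzd8 read -4.37 and -2.14 (4.69-fold). The closely related Fzd1, Fzd2 and Fzd7 differed by similar amounts. Fzd1 read 0.91 and 2.82, Fzd2 0.83 and 2.71, and Fzd7 -2.65 and -1.05, which were 3.76-, 3.66- and 3.05-fold differences. Fzd4, which also binds the non-Wnt ligand norrin, read 0.98 and 2.50 (2.88-fold).

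Fzd5 read -5.01 and -3.69 (2.5-fold), and both of its probes were higher, by 1.24 and 1.41 on the log2 scale. Fzd3, a receptor of axon guidance, read -5.08 and -4.12 (1.94-fold) and was past 2-fold with the series table alone. Against the rest of the family, Fzd6 was lower, at -2.03 in Wt and -3.95 in Sipa1-/- MSCs (3.79-fold), and so was Fzd9, at -3.53 and -4.61 (2.13-fold). Fzd6 is known for planar polarity in skin and hair, and Fzd9 for roles in bone and B-cell development. Each was represented by 1 probe. The background-corrected alternative kept the sign of both but ended both calls, as it did for Fzd5 and Fzd8, and the series table ended the call of Fzd9.

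All 4 co-receptors were higher in Sipa1-/- MSCs, by different amounts. Ror2, a tyrosine kinase receptor for Wnt5a, read -0.25 in Wt and 1.77 in Sipa1-/- MSCs (4.05-fold), and its relative Ror1 read -2.56 and -1.09 (2.79-fold). Lrp5 read -0.29 and 0.43 and Lrp6 -0.44 and 0.19, or 1.65- and 1.54-fold. The Ror genes were thus past 2-fold and the Lrp genes below it, a difference that could not be tested with these arrays. The 2 probes of Lrp6 gave log2 ratios of 0.54 and 0.71.

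Of the 9 secreted antagonists, 7 were measured in MSCs, with a median log2 ratio of 1.75. At least 2-fold higher were 6 (85.7%, beside 19.3% of all genes), and none were lower. Dkk3, the divergent member of the Dickkopf family, read 0.76 in Wt MSCs and 2.85 in the knockout (4.25-fold), and its 2 probes gave 2.12 and 2.05. Sfrp2 read 2.53 and 4.54 (4.04-fold), and Sfrp4 read 3.58 and 5.44 (3.64-fold). Sfrp1 read -0.34 and 1.41 (3.37-fold). These 4 genes differed by similar amounts, between 1.75 and 2.09 on the log2 scale, and all stayed past 2-fold under every setting that gave them a value.

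Dkk2 read -2.73 and -1.10 (3.09-fold). Sfrp5 read -5.20 and -3.81 (2.62-fold), close to background, and fell below 2-fold with the offset correction. Wif1 read -2.05 and -1.07 (1.97-fold). Frzb was above background only on the Sipa1-/- array, at -5.32, which made it at least 1.45-fold higher there; such bounds set the bright level against the lowest signal called above background on the dim array, or the dim probe's own signal where that was higher. Dkk1 was not well above background on either array. The target gene Axin2 read -4.29 and -3.55 (1.67-fold) by 1 probe; the other, below background on both arrays, had the opposite sign (-1.57).

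In CD8+ T cells the question was whether the same genes differed between genotypes, on 2 arrays that share none with the MSC comparison. Fewer could be seen, and those past 2-fold were 4 antagonists, 2 ligands, 1 Frizzled receptor and 1 co-receptor. Of the 23 members measured, 22 were higher and 1 lower in Sipa1-/- cells, with a median log2 ratio of 0.50 against -0.02 for all 14339 genes measured. At least 2-fold higher were 8 members, or 34.8%, beside 2.66% of all genes, and 0 were at least 2-fold lower, beside 1.4% of all genes. Of all genes past 2-fold, 65.5% were higher, against 52.5% with median scaling, 76.3% with the series table and 52.4% with the offset correction.

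Wnt2 read -4.70 on the Wt and -2.54 on the Sipa1-/- CD8 T-cell array (4.47-fold), and Wnt5a read -5.27 and -4.24 (2.03-fold). Among the receptors, Ror2 read -5.43 and -3.68 (3.35-fold), Fzd2 read -4.44 and -3.00 (2.7-fold), and Fzd4, at -3.51 and -2.53, fell just short of 2-fold. The antagonists had the highest median log2 ratio of the groups, 1.40. Of the 5 measured, 4 were at least 2-fold higher (80%, beside 2.66% of all genes). Sfrp4 read -2.49 and -0.46 (4.08-fold). Dkk3 read -3.92 and -2.18 (3.34-fold), with 1.93 and 1.55 from its 2 probes. Sfrp2 read -2.90 and -1.50 (2.63-fold), and Sfrp1 read -5.05 and -3.95 (2.15-fold). All 8 were below the 75th percentile of the arrays, and with the offset correction only Sfrp4 stayed past 2-fold.

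The remaining 15 members measured in CD8 T cells were within 2-fold. Wnt10a was the only one lower, at -1.86 in Wt and -2.41 in Sipa1-/- cells. Wnt6 read -4.83 and -4.09, Fzd1 -2.21 and -1.65, Fzd7 -5.01 and -4.51, and Wnt11 -3.84 and -3.50. Their log2 ratios were 0.34 to 0.74, and no replicate shows how far such values vary. Wnt1 read -1.01 and -0.96, Lrp5 -0.49 and -0.45, and Lrp6 -0.90 and -0.83. For these 3 genes, as for Wnt5b (-3.06 and -3.01), Wnt7b (-4.37 and -4.33) and Sfrp5 (-4.32 and -4.29), the 2 arrays were close, with log2 ratios of 0.03 to 0.07. Wnt10b read -4.24 and -4.03 and Fzd5 -4.28 and -4.17, each with 2 probes of opposite sign. Axin2 read -3.89 and -3.49, and its probes also went opposite ways (1.07 and -0.27).

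Among the members seen on 1 CD8 T-cell array only, Wnt9a and Fzd10 were above background in Sipa1-/- cells, at -4.95 and -4.92, and so at least 1.53- and 1.56-fold higher. Fzd6 and Fzd9 were above background in Wt cells, at -5.22 and -5.01, and at least 1.20- and 1.39-fold lower in Sipa1-/- cells. The lowest signals called above background were -5.56 on the Wt and -5.49 on the Sipa1-/- CD8 T-cell array, close to these levels. Each of the 4 entered only through the array where it was brighter. The side on which it lay, the same as in MSCs, is therefore no check of the MSC values. The Dkk2 spot, at -5.36 and -4.37, was left out for a fault flag. The other 12 members, among them Wnt4, Wnt16, Ror1, Fzd8 and Wif1, were not well above background on either array.

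The fibroblast markers were also higher on the Sipa1-/- CD8 T-cell array, 11 of 12 at least 2-fold, with a median log2 ratio of 1.63 and a range of 0.09 to 2.08. The marker at the low end was Thy1. The T-cell markers had a median log2 ratio of -0.01. Granulocyte markers were lower in Sipa1-/-, 5 of 8 at least 2-fold with a median of -1.08, and so were erythroid markers, 4 of 5 with a median of -1.09. Of the B-lineage markers, 3 of 11 (Vpreb1, Vpreb3 and Igll1) were at least 2-fold lower, and the median of the list was -0.17. The part of these cell types in the Wnt gene differences of the CD8 T-cell arrays was not tested.

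**Figure D3:**
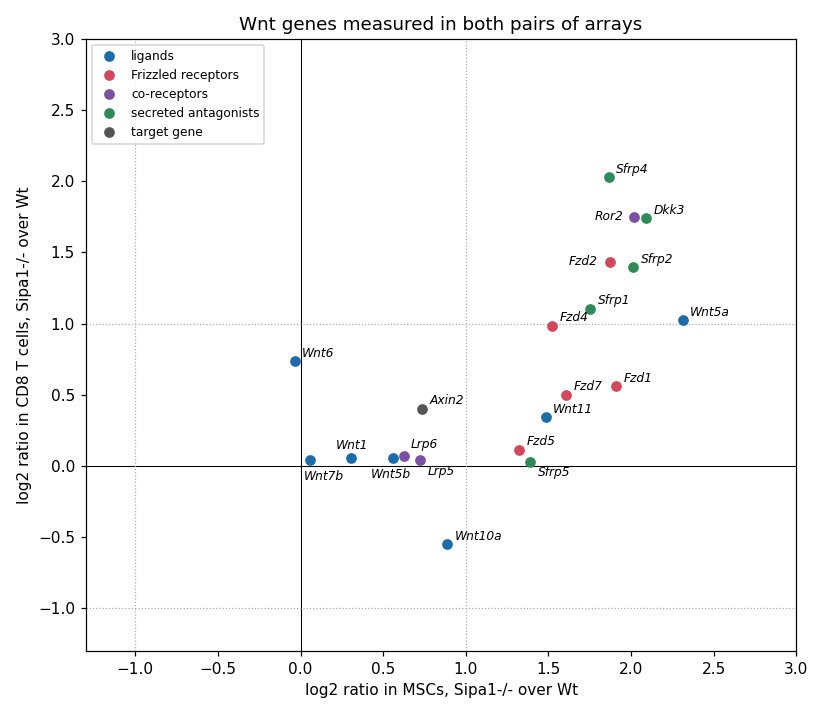
Log2 ratio of Sipa1-/- over Wt in MSCs (x axis) and in CD8 T cells (y axis) for the 21 members measured in both pairs of arrays, colored by role, with dotted lines at 2-fold. Sfrp4, Dkk3, Ror2, Sfrp2, Fzd2, Sfrp1 and Wnt5a lie past 2-fold on both axes, and Wnt1, Wnt5b, Wnt7b, Lrp5 and Lrp6 lie below it on both.

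Of the 21 members measured in both pairs, 19 were higher in Sipa1-/- cells in both. The 7 at least 2-fold higher in both were Wnt5a, Fzd2, Ror2, Sfrp1, Sfrp2, Sfrp4 and Dkk3. No matching share of all genes was counted, so these numbers do not set the members apart from other genes. Fibroblast markers were also higher in Sipa1-/- cells in both pairs, with median log2 ratios of 1.56 (MSC arrays) and 1.63 (CD8 T-cell arrays). Their part in the overlap was not tested. Wnt6 and Wnt10a had opposite signs, each by less than 2-fold. Fzd1 and Fzd7 were past 2-fold in MSCs and at 1.47- and 1.41-fold in CD8 T cells. Fzd5, Wnt11 and Sfrp5 were likewise past 2-fold in MSCs and within 1.3-fold in CD8 T cells. Whether any of these differences depended on cell type was not testable with 1 array in each condition.

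The third question was how the levels in MSCs compared with those in CD8 T cells of the same genotype. These comparisons use the same 4 arrays as those above, so their values stand beside the genotype ratios and are not independent of them. In Wt mice 23 members were measured, of which 14 were at least 2-fold higher in MSCs (60.9%, beside 17.3% of 14225 genes) and 2 at least 2-fold lower (8.7%, beside 12.8%). In Sipa1-/- mice 26 were measured, 18 of them at least 2-fold higher in MSCs (69.2%, beside 21.9% of 14300 genes) and 0 at least 2-fold lower (beside 18.7%). Over all genes past 2-fold, 57.4% were higher in MSCs in Wt mice and 54.0% in Sipa1-/- mice; these shares were 45.5 and 42.9% with median scaling and 76.6 and 76.3% with the series table.

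Antagonists and receptors were among the members with a large excess in MSCs. Sfrp4 differed by 6.07 on the log2 scale in Wt and 5.91 in Sipa1-/- mice, Sfrp2 by 5.43 and 6.04, Sfrp1 by 4.71 and 5.36, and Dkk3 by 4.68 and 5.03. Fzd2 differed by 5.27 and 5.71, Fzd4 by 4.49 and 5.03, and Ror2 by 5.18 and 5.45. Fzd1, at 3.12 and 4.47, Fzd7, at 2.36 and 3.47, and Wnt5a, at 3.21 and 4.50, differed by less. The fibroblast markers had medians of 4.82 and 4.85 in the same comparisons. Such an excess was not particular to fibroblast markers. Skeletal muscle markers had medians of 6.64 and 6.62, erythroid markers 5.81 and 6.45, and B-lineage markers 4.29 and 0.09. The medians of T-cell, pan-leukocyte, endothelial and macrophage markers were lower in MSCs in both genotypes.

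Several members were above background in MSCs and not in CD8 T cells. Each member given as a bound entered only through the MSC array, so the side on which it lay is no separate result. In Wt mice Fzd10 was at least 18.6-fold, Wnt9a at least 16.0-fold, Wif1 at least 11.4-fold and Ror1 at least 7.98-fold higher in MSCs. In Sipa1-/- mice the bounds were 21.4-fold for Wif1, 19.4-fold for Ror1 and 10.2-fold for Fzd8. Wnt9a and Fzd10 were measured in both cell types there, and were 79.1- and 74.5-fold higher in MSCs. Wnt2 was 58.4-fold higher in Sipa1-/- MSCs than in Sipa1-/- CD8 T cells.

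Other members differed less between the cell types or were lower in MSCs. Wnt10a was lower there, by 4.94-fold in Wt and 1.83-fold in Sipa1-/- mice, and Axin2, by the 1 probe measured, by 3.29- and 1.64-fold. Wnt1 and Wnt7b differed by less than 1.5-fold in both genotypes, with the MSC array the lower of the pair. Sfrp5 and Fzd5 were below CD8 T cells in Wt mice (log2 ratios -0.88 and -0.72) and above them in Sipa1-/- mice (0.48 and 0.48). The co-receptors Lrp5 and Lrp6, which many cell types express, differed by 0.20 and 0.47 in Wt and by 0.88 and 1.02 in Sipa1-/- mice.

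**Figure D4:**
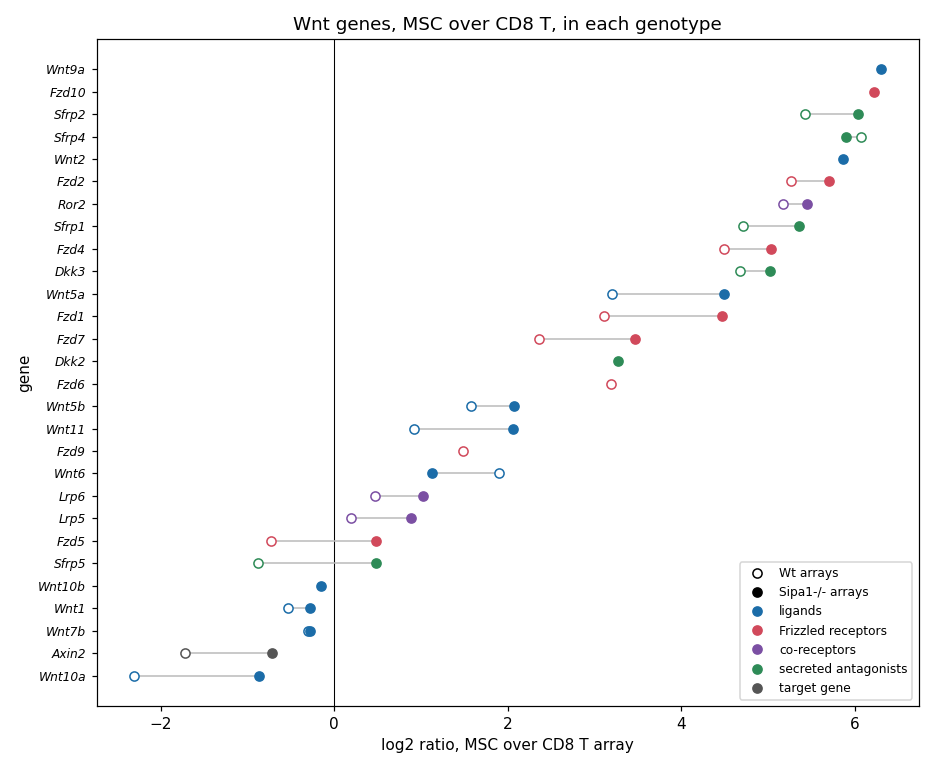
Log2 ratio of the MSC over the CD8 T-cell array in Wt mice (open circles) and Sipa1-/- mice (filled circles) for each member measured, colored by role; a missing circle means that the gene was not measured on both arrays. Sfrp2, Sfrp4, Fzd2, Ror2, Sfrp1, Fzd4 and Dkk3 sit at 4.49 or above in both genotypes, and Wnt10a and Axin2 sit below 0 in both.

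The rest of the pathway was described from a list of 92 names, 89 of which were found on the array. In MSCs 82 were measured, with a median log2 ratio of 0.35, beside 1.48 for the surface and secreted members. Past 2-fold, 27 were higher and 6 lower in the knockout, beside 19.3% and 11.3% of all genes. Genes for ligand secretion and modification had a median of 1.36 (7 of 12 at least 2-fold higher), R-spondins with their Lgr receptors and membrane ubiquitin ligases 0.91 (4 of 8), and further receptors and extracellular antagonists 1.17 (3 of 5, with 1 lower). The 14 cytoplasmic transducers, such as the Dishevelled proteins, Gsk3b and β-catenin itself, had a median of 0.01, and 0 of them passed 2-fold. Nuclear factors had a median of 0.09 (3 higher and 2 lower of 13), feedback and target genes 0.95 (4 higher and 1 lower of 13), and the planar polarity and calcium branch 0.48 (6 higher and 2 lower of 17). The counts of the nuclear factors were near the shares of all genes. So were the lower counts of the planar polarity and calcium branch and of the feedback and target genes. The 6 lower of all 82 did not exceed the share of all genes.

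The 6 pathway genes with the largest differences in MSCs included 3 that were lower. Lef1, a nuclear partner of β-catenin that developing lymphocytes also express, read 4.46 in Wt and -0.15 in Sipa1-/- MSCs. Its log2 ratio was -4.61, and the B-lineage markers had a median of -4.16. The part of B-lineage cells in the differences of these pathway genes was not tested. Celsr1, a planar polarity cadherin, read 2.29 and -0.93, and Tnfrsf19, a target gene, read 0.54 and -2.28. Cthrc1, a secreted protein that favors Wnt binding to Frizzled and Ror2, read 2.08 and 4.68. Sulf2, which trims heparan sulfate and so affects Wnt availability, read 1.09 and 3.53, and Plcb1, of the calcium branch, read -4.62 and -2.18.

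In CD8 T cells 72 pathway genes were measured, with a median log2 ratio of 0.06. Past 2-fold, 7 were higher and 1 was lower, beside 2.66% and 1.4% of all genes. Cthrc1 (log2 ratio 1.69), Rspo1, a secreted amplifier of Wnt signaling (1.57), Gpc3, a cell-surface proteoglycan (1.55), and the matricellular genes Ccn4 (1.20) and Ccn5 (1.13) were higher, and Celsr3, a planar polarity cadherin, was lower (-1.37).

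**Figure D5:**
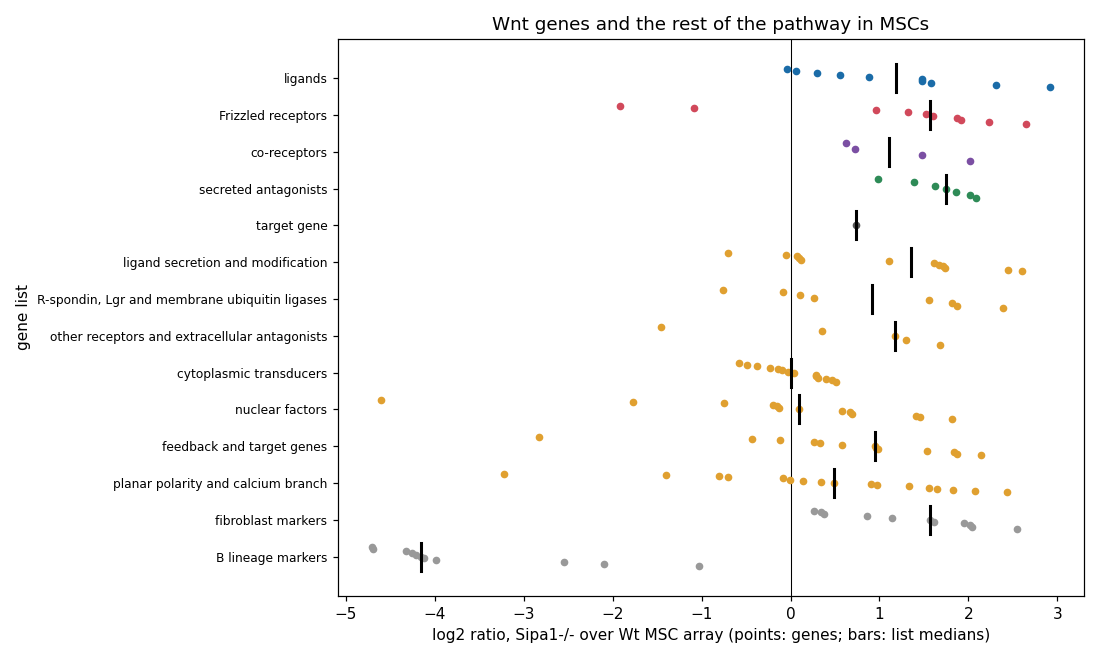
Log2 ratio of the Sipa1-/- over the Wt MSC array for each measured gene (points) of the 5 groups of members, 7 further lists of the pathway and 2 marker lists; black bars are the list medians. The cytoplasmic transducers center on 0.01, the secreted antagonists on 1.75 and the fibroblast markers on 1.56, and the B-lineage markers lie at -4.16.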

How the data were processed

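The 4 arrays (Agilent SurePrint G3 Mouse, single-color Cy3) were scanned and extracted by the authors. The deposited scanner files hold spot intensities, background intensities and quality flags; their header names Feature Extraction 12.0.3.1, whereas the submitters' notes name 9.1. The deposited series table holds the processed signal, on a linear intensity scale, times 1 constant per array whose origin was not given. Spots were named through RefSeq accessions (57.6% of non-control spots matched a symbol). The log2 level is the processed signal minus each array's 75th percentile, computed here from the deposited intensities. As in the methods, spots had to be unsaturated, uniform, positive and well above background, here on both arrays of a pair; probes were then averaged per gene. A log2 ratio of 1 (2-fold) was the threshold for counts. All arrays were on 1 slide. Groups came from the sample titles, and each had 1 array, so that number limits the precision and no test was run. Every member was accounted for, with values wherever it was measured in a genotype comparison; of the other pathway genes, the 6 with the largest differences were named for each genotype comparison. The members and gene lists were chosen with earlier results of these data known. Alternatives were other flag rules, median and quantile scaling, the series table, normexp background correction (limma 3.58.1, R 4.3.3) with an offset of 50, 1 probe per gene (the brightest), and only the brighter genes (signal over the median). Other steps used Python 3.11.15, numpy 2.4.6 and pandas 2.3.3, and the ratio calculation was tested on simulated data.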

Additional observations from a re-analysis of the deposited data

How the results depend on the processing

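No paired analysis was possible because there was a single array for every genotype and cell type. No member past 2-fold turned sign under any alternative, and 14 of 22 calls in MSCs and 1 of 8 in CD8 T cells (Sfrp4) held under every alternative that gave them a value. In MSCs (20 higher, 2 lower, median 1.48), the offset correction gave 0 lower and a median of 0.82, and ended Wnt4, Wnt11, Wnt16, Fzd5, Fzd6, Fzd8, Fzd9 and Sfrp5; the series values gave 1 lower and 1.69, median scaling 1.34, and genes above the median signal 10 higher, 0 lower and 1.89. In CD8 T cells (8 higher, 0 lower, median 0.50), the offset correction gave 1 higher and 0.19, no flags 1 lower and 0.16, median scaling 0.35, quantile scaling 0.33 and the values of the series table gave 0.63; no member lay above the median signal, so that setting gave no value. For MSCs over CD8 T cells in Wt mice (14 higher, 2 lower), flags on 1 array or none gave 23 higher, genes above the median signal 2 higher and 0 lower, no flags and quantile scaling 4 lower, and the offset correction 1 lower. In Sipa1-/- mice (18 higher, 0 lower), no flags gave 28 higher and 2 lower, genes above the median signal 8 higher, and flags on 1 array, median scaling and quantile scaling 1 lower each. The offset adds the same amount to every spot, which by construction shrinks ratios of dim probes, and the filter on bright genes leaves fewer members; other causes were not tested. The median of all genes in MSCs was 0.04, and 0.25 with the series table and -0.10 with median scaling. Signal over background limits the dim members.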
